A study of Mus musculus with 3 samples.

Results

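Early neural lineage genes were examined in undifferentiated mouse embryonic stem (ES) cells with and without knockdown of NUP153, a nucleoporin of the nuclear pore basket. The set was chosen by name and holds 9 genes, all of which were found among the 24421 genes of the deposited counts: Pax6, Sox1, Sox11, Nes, Pou3f1, Pou3f2, Pou3f3, Otx2 and Bcl11a. All 9 genes passed the minimum mean of 10 reads over the libraries. RNA-Seq was performed on the female ES cell line EL 16.7, whose background is given as F2:129S1/CastEiJx 129S1, and which was grown with LIF on γ-irradiated mouse embryonic fibroblasts (MEFs) of Tg(DR4)1Jae/J mice. Cells received lentivirus carrying a scramble shRNA (control, genotype wild type), NUP153 shRNA-1 (KD-1) or NUP153 shRNA-2 (KD-2), and cells of all 3 groups were selected with 2 μg/ml puromycin for 2 days. Each group has 1 library of ribosomal RNA-depleted total RNA, so that no difference between libraries could be set against a spread between replicates. NUP153 is reduced and not absent in this model, and the RNA of the feeder cells can be part of each library.

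During neural induction, ES cells pass through a primed epiblast state in which OTX2 and POU3F1 (OCT6) act, and then become neuroectoderm, which is marked by SOX1. Neural progenitors that follow express PAX6, the POU3F (BRN) factors, SOX11 and the intermediate filament protein nestin, encoded by Nes. In undifferentiated ES cells most of these developmental regulators are kept at a low level, and their promoters are often rich in CG dinucleotides. BCL11A is a zinc finger repressor that is known for its roles in neurons and in globin switching.

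The promoters of the genes are shown first. Among the 8 genes with a matched promoter, Sox1, Pou3f2 and Bcl11a have the highest folds against control and the most CG dinucleotides. This order was described with the folds already known, and a comparison over other genes is given below. RefSeq promoters (GRCm38.p6, 250 bases before to 50 after a start) were matched by symbol for 8 of the 9 genes, all but Pou3f1, with 12 promoters in total. Sox1 is shown at chr8:12395269-12395568 (+), Pou3f2 at chr4:22488317-22488616 (-) and Bcl11a at chr11:24080445-24080744 (+). Otx2, which was lower in KD-2, is shown for contrast at the start nearest to the 3′ end of the gene, chr14:48662685-48662984 (-). Sequences read 5′ to 3′ on the strand of the gene, and capitals mark CG dinucleotides.

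Sox1: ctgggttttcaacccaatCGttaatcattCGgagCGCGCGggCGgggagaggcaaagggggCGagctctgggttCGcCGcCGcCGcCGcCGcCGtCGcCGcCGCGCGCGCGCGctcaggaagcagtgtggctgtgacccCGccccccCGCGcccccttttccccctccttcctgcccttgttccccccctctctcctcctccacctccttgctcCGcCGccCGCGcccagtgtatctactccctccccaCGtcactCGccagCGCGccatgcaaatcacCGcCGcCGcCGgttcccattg

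Pou3f2: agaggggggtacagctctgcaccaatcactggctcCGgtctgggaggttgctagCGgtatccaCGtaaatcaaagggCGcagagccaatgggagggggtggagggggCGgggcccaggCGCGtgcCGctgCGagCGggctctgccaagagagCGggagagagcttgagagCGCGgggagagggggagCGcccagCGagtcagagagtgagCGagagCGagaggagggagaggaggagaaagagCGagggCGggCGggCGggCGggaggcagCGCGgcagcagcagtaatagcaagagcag

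Bcl11a: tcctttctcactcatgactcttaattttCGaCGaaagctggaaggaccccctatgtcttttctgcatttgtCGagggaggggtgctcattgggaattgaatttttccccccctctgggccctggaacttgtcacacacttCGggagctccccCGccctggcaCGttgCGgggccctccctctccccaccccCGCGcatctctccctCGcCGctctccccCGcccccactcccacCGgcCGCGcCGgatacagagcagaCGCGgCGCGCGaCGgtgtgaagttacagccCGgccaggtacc

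Otx2: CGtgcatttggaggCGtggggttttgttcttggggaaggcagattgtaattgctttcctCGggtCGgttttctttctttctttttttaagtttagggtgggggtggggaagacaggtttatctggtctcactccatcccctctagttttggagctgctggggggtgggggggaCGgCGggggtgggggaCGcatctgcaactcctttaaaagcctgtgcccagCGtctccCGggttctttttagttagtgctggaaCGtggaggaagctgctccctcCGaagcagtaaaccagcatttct

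The promoter of Sox1 holds 37 CG dinucleotides, that of Pou3f2 holds 24 and that of Bcl11a holds 23. The promoters of Sox11, Pou3f3, Nes, Pax6 and Otx2 hold 6 to 21, and the median over all 32851 promoters was 7. The letters CCCTC, from which CTCF takes its name, were searched on both strands with overlapping matches allowed. They occur in 12 of the 12 promoters of these genes and in 66.0% of all promoters of the same length. The 12 promoters belong to 8 genes, with more than 1 start for Otx2 and Pax6, and windows of Otx2 overlap. Their median share of G and C bases was 58.7%, beside 52.7% over all promoters. Binding of CTCF to these letters was not examined. Pou3f2 and Bcl11a each have 6 matches, Sox1 has 3 and the Otx2 promoter shown has 2. The octamer ATGCAAAT, which POU factors bind, was searched in the same way, and it is present in the Sox1 promoter and in 1.74% of all promoters. TATAAA is present in 1 of the 12 promoters, at another start of Otx2, and in 13.6% of all promoters.

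To examine whether the labels fit the libraries, Nup153 reads were compared first. The control library had 27870 reads on Nup153, KD-1 had 16451 and KD-2 had 11126, which is a fold of 0.504 for KD-1 and 0.371 for KD-2 after scaling. For folds between libraries, counts were scaled by the upper quartile. The control library held 72344726 reads on genes, KD-1 held 85258834 and KD-2 held 69839336. The ES cell factor Pou5f1 had 35405, 45092 and 32962 reads in control, KD-1 and KD-2, and Nanog had 44622, 61737 and 39339. Markers of embryonic fibroblasts, which can come from the feeder layer, were detected in every library, and none of 18 was at 0. Summed over the markers, control had 258147 scaled reads, KD-1 had 186961 (0.724 of control) and KD-2 had 434394 (1.68 of control). Of these 18 markers 9 were more than 1.5-fold lower in KD-1, and 16 were more than 1.5-fold higher in KD-2. Fibronectin (Fn1), the marker with the most reads, had log2 folds of -0.08 and 0.53.

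Levels were compared between genes as RPKM, which scales reads to the length of the exons and to the total reads on genes of the library, so that the order of libraries in RPKM can differ from that of the folds. In control, Nes and Otx2 were the only members above 1 RPKM. Nes was at 11.4 RPKM, which is percentile 83.9 of the genes with a known length, and Otx2 was at 8.34 RPKM, which is percentile 80.3. The transcription factors Sox11 and Pax6 were at 0.609 and 0.323 RPKM, and Pou3f1 was at 0.158 RPKM. The lowest levels were found for Pou3f3 at 0.0522, Pou3f2 at 0.0495, Bcl11a at 0.0388 and Sox1 at 0.0229 RPKM. Neighbours in this order from Nes to Pou3f3 differed beyond their counting error, whereas neighbours among Pou3f3, Pou3f2, Bcl11a and Sox1 did not. For example, the ratio of Pou3f3 to Pou3f2 was 1.06, with an exact 95% counting interval of 0.574 to 1.98. All intervals cover the counting of reads only. Nes and Otx2 stayed above 1 RPKM after knockdown, at 14.4 and 7.49 RPKM in KD-1 and at 9.75 and 5.68 RPKM in KD-2. The other 7 genes stayed below it, from 0.0583 to 0.694 RPKM in KD-1 and from 0.0474 to 0.82 RPKM in KD-2.

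**Figure D1:**
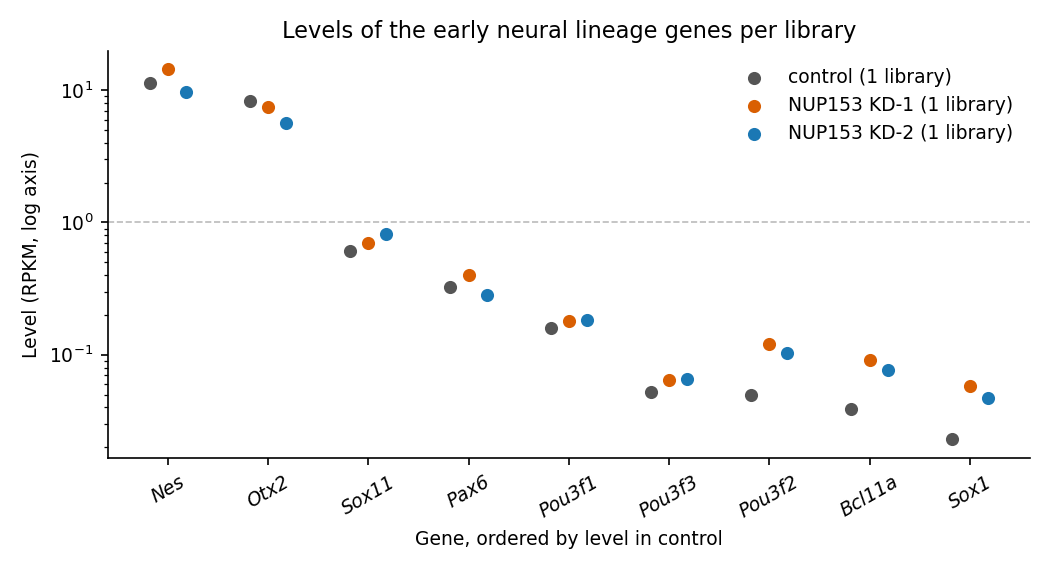
Level of each early neural lineage gene in RPKM (log axis) in the control, KD-1 and KD-2 library, 1 point per library, with a dashed line at 1 RPKM. Nes and Otx2 lie above the line in the 3 libraries, and Sox1, Pou3f2 and Bcl11a are lowest in control.

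In KD-1 compared to control, 3 of the 9 genes were more than 1.5-fold higher and 0 were more than 1.5-fold lower. Over all 16670 genes that passed the same minimum, 8.63% were more than 1.5-fold higher and 5.62% more than 1.5-fold lower. The 3 genes were Sox1, Pou3f2 and Bcl11a, all of which have few reads. The 9 genes were chosen with earlier results of these libraries known, in which Pou3f2 and Bcl11a had already been named as higher, so that this count is not independent evidence. Among the 3927 genes with a mean of 10 to 100 reads, 24.4% were more than 1.5-fold higher in KD-1, beside 3 of the 5 early neural lineage genes in this class (the other two being Pou3f1 and Pou3f3). The median log2 fold of the 9 genes was 0.33, beside 0.02 over all genes. In KD-2 compared to control, 3 genes were more than 1.5-fold higher and 1 was more than 1.5-fold lower, beside 17.1% and 10.2% of all genes, and the median was 0.17, beside -0.02. In the class of 10 to 100 reads, 28.1% of genes were more than 1.5-fold higher in KD-2, beside the same 3 of 5. Both comparisons use the same control library, so that their folds are not independent. Because these are bulk samples, fewer cells that express a gene and less RNA per cell cannot be told apart.

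Sox1, on chromosome 8 from 12395295 to 12400126 (GRCm38, + strand), encodes an HMG-box factor that is among the earliest markers of neuroectoderm and consists of a single exon. Control had 8 reads on Sox1, KD-1 had 24 and KD-2 had 16. Control was the lowest of the 3 libraries. The fold against control was 2.48 in KD-1 (interval 1.11 to 6.59) and 1.81 in KD-2 (interval 0.75 to 5.01), so that the difference between KD-2 and control was not larger than the counting error. At this depth KD-1 and KD-2 could not be told apart for Sox1 (fold of KD-2 over KD-1 0.731, interval 0.36 to 1.42).

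Pou3f2 (Brn2), on chromosome 4 from 22482780 to 22488366 (- strand), encodes a POU factor of neural progenitors and neurons and is likewise a single-exon gene. Control had 20 reads on Pou3f2, KD-1 had 57 and KD-2 had 40. Its fold against control was 2.40 in KD-1 (interval 1.44 to 4.27) and 1.84 in KD-2 (interval 1.06 to 3.35), and both intervals leave out 1. Its paralogs Pou3f1 and Pou3f3 stayed within 1.5-fold of control. Pou3f1, a POU factor of the primed epiblast (chromosome 4 from 124656807 to 124660655, + strand), had 44, 59 and 49 reads in control, KD-1 and KD-2, with folds of 1.14 in KD-1 (interval 0.761 to 1.73) and 1.03 in KD-2 (interval 0.674 to 1.59). Pou3f3 (Brn1), a factor of cortical progenitors on chromosome 1 from 42695768 to 42703176 (+ strand), had 28, 41 and 34 reads, with folds of 1.25 in KD-1 (interval 0.754 to 2.1) and 1.13 in KD-2 (interval 0.664 to 1.93). The intervals of Pou3f2 overlap those of both paralogs in each knockdown, and the difference between the paralogs was not tested. Reads of the paralogs could be kept apart, since 0 of the 50-base words in the transcripts of any of the 9 genes occur in those of another of them.

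Bcl11a, on chromosome 11 from 24078056 to 24174123 (+ strand), was also lowest in control, with 37 reads, beside 102 reads in the KD-1 library and 71 in the KD-2 library. Its fold was 2.34 in KD-1 (interval 1.6 to 3.53) and 1.77 in KD-2 (interval 1.18 to 2.73). Both knockdown libraries were above control beyond the counting error, and KD-2 was not distinguishable from KD-1 at this depth (fold 0.759, interval 0.551 to 1.04). Exons of Bcl11a overlap the antisense gene 4930538E20Rik, which has no line in the counts, and the strand setting of the counting is not given in the sources used here. Sox1, Pou3f2 and Bcl11a had the highest values in KD-1, where the summed feeder markers were lowest. They had the lowest values in control, where the feeder markers were at an intermediate level. For each of these genes the interval of KD-2 over KD-1 includes 1 (Pou3f2 0.496 to 1.16), so that the order of the knockdown libraries is within counting error. The part of the feeder cells in these folds was not tested.

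Genes with a matched promoter were compared by the number of CG dinucleotides. With 10 to 100 reads, genes with at least 23, as in Sox1, Pou3f2 and Bcl11a, were higher in KD-1 about as often as genes with fewer. Of 594 genes with such promoters 24.1% were more than 1.5-fold higher in KD-1, and of 2084 genes with fewer CG dinucleotides 24.4% were. In KD-2 these shares were 34.7% and 25.9%. Over all genes with a matched promoter that passed the minimum (5250 with such promoters and 7036 with fewer CG dinucleotides), the share was lower with such promoters. It was 5.03% beside 10.4% in KD-1 and 14.4% beside 17.9% in KD-2. The threshold of 23 was set after the values of these 3 genes were seen.

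Otx2, on chromosome 14 from 48657677 to 48673819 (- strand), encodes a homeodomain factor of the primed epiblast and of the forebrain and midbrain. Control had 2546 reads on Otx2, KD-1 had 2695 and KD-2 had 1674. KD-2 was the lowest library. The fold was 0.903 in KD-1 (interval 0.855 to 0.954) and 0.611 in KD-2 (interval 0.574 to 0.65), and Otx2 was the only member more than 1.5-fold lower in either knockdown. Where the mean was at least 100 reads, 8.69% of 12743 genes were more than 1.5-fold lower in KD-2. When libraries were scaled by their total reads on genes, the log2 fold in KD-2 moved from -0.71 to -0.55 and was no longer past 1.5-fold. Exons of Otx2 share 154 bases with the antisense gene Otx2os1, which had 14, 8 and 3 reads in control, KD-1 and KD-2, fewer than the minimum mean. Feeder markers were highest in the same library in which Otx2 was lowest. With a scaling to the 14 naive and core pluripotency genes, chosen after the data were seen, the log2 fold in KD-2 was -0.63. The same scaling moved the log2 fold in KD-1 from -0.15 to -0.42, and that of KD-2 over KD-1 from -0.57 to -0.21. The part of the feeder cells in the fold of Otx2 was not tested.

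Nes and Pax6 were above control in KD-1 and below it in KD-2, within 1.5-fold. Nes, on chromosome 3 from 87971078 to 87980451 (+ strand), encodes nestin, a filament protein of neural progenitors that other dividing cells can also express. Control had 5304 reads on Nes, KD-1 had 7903 and KD-2 had 4370. The fold of Nes was 1.27 in KD-1 (interval 1.23 to 1.32) and 0.765 in KD-2 (interval 0.735 to 0.796). Pax6, a paired-box regulator of eye and forebrain on chromosome 2 from 105668900 to 105697364 (+ strand), had 273, 403 and 232 reads in control, KD-1 and KD-2. The fold of Pax6 was 1.26 in KD-1 (interval 1.08 to 1.47) and 0.789 in KD-2 (interval 0.66 to 0.943). For both genes KD-1 was the highest library and KD-2 the lowest. Feeder markers had the reverse order, and their part in these folds was not tested. Sox11, an HMG-box factor of progenitors and immature neurons on chromosome 12 from 27334264 to 27342574 (- strand), had 366 reads in control, beside 492 reads for KD-1 and 476 for KD-2. The fold of Sox11 was 1.15 in KD-1 (interval 1.0 to 1.32) and 1.21 in KD-2 (interval 1.05 to 1.39), and control was the lowest library. With the scaling to pluripotency genes the log2 fold of Sox11 in KD-1 turned from 0.20 to -0.08 and that of Pou3f1 from 0.19 to -0.08. The same scaling took Nes in KD-1 from 0.35 to 0.07 and Pax6 from 0.33 to 0.06, so that the size of their difference from control in KD-1 depends on the scaling.

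To determine how far the NUP153 shRNAs differ on these genes, KD-2 was compared directly to KD-1. In this comparison 2 of the 9 genes, Nes and Pax6, were more than 1.5-fold lower in KD-2, and 0 were more than 1.5-fold higher. Over all genes 13.9% were more than 1.5-fold lower and 16.1% more than 1.5-fold higher, and where the mean was at least 100 reads 10.9% were more than 1.5-fold lower. The fold was 0.602 for Nes (interval 0.58 to 0.624) and 0.627 for Pax6 (interval 0.531 to 0.738). Otx2 was at 0.676 (interval 0.635 to 0.719), just within 1.5-fold. The median log2 fold of the 9 genes was -0.40, beside -0.12 over all genes, and 8 of 9 were below 0, the exception being Sox11 at 0.07. The 14 naive and core pluripotency genes had the same median of -0.40, with 13 of 14 below 0, so that this shift is not particular to the neural genes. Feeder markers lay on the other side, with a median of 1.61 and 17 of 18 more than 1.5-fold higher in KD-2, and their part in these folds was not tested. With total reads Pou3f1 and Pou3f3 were also above 0, at 0.02, which leaves 6 of 9 below it. The median was then -0.23, beside 0.04 over all genes. With the scaling to pluripotency genes 6 of 9 were below 0, with a median of -0.04, beside 0.23 over all genes. The calls past 1.5-fold depended on the scaling too: with DESeq2's size factors 1 gene, Nes, was past 1.5-fold, and with total reads 0 were.

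When both knockdown libraries were compared to control as a group, 0 of the 9 genes were called by edgeR's quasi-likelihood test at an adjusted p under 0.05, and 0 had an unadjusted p under 0.05. This test has 1 residual degree of freedom, and its spread is that between the KD-1 and KD-2 libraries. It called 4 of 21164 genes (0.0189%), and 293 (1.38%) had an unadjusted p under 0.05. In edgeR's fit Bcl11a had a log2 fold of 1.05, Pou3f2 of 1.11 and Sox1 of 1.14, each with an adjusted p of 1, and these 3 genes were higher in both knockdown libraries. The log2 folds of Nes and Pax6 as a group were 0.03 and 0.04, since the knockdown libraries lay on either side of control. The Wald test of DESeq2 called 2 of 21164 genes, with 82 (0.387%) at an unadjusted p under 0.05, and none of the 9 genes was among either. With so few calls over all genes, these counts do not separate the 9 genes from the rest. These p-values measure the spread between libraries of different shRNAs, and nothing shows that it equals that between replicate cultures.

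Other genes of neural plate, patterning and neural progenitors lay on both sides of control. Of 44 such genes, 29 passed the minimum. In KD-1 4 were more than 1.5-fold higher and 2 more than 1.5-fold lower, with a median log2 fold of 0.10. In KD-2 10 were higher and 4 lower, with a median of 0.09. Over all genes that passed the minimum, 8.63% were higher and 5.62% lower in KD-1, and 17.1% and 10.2% in KD-2. Where the mean was 10 to 100 reads, 24.4% of genes were higher in KD-1 and 28.1% in KD-2. Sox2, the SOX factor shared by ES cells and neural progenitors, is the gene of this list with the most reads. It had 27360, 28219 and 23802 reads in control, KD-1 and KD-2 and log2 folds of -0.18 and -0.31. Sox2 is also counted in the list of naive and core pluripotency genes. Fabp7, a fatty acid binding protein of radial glia, had 46, 206 and 56 reads and was 3.79-fold higher in KD-1 (interval 2.77 to 5.38). Irx3, a patterning homeobox gene, had 83, 75 and 264 reads and was 2.94-fold higher in KD-2 (interval 2.30 to 3.83). Emx2, a homeobox gene of the dorsal forebrain, had 10, 27 and 24 reads, with folds of 2.25 and 2.17 against control. Hesx1, a homeobox repressor of the anterior neural plate, had 174, 173 and 96 reads, with a fold of 0.514 in KD-2 (interval 0.395 to 0.661). Irx3 was lowest in KD-1 and highest in KD-2, which is also the order of the summed feeder markers, and so were Nkx6-2 (87, 63 and 191 reads), Zic1 (43, 40 and 76 reads) and Hes1 (2592, 2528 and 4517 reads). These are 4 of the 10 genes higher in KD-2. The other 6 (Sox3, Gbx2, Lhx2, Six3, Emx2 and Notch1) had folds above 1 in KD-1. In KD-1 the intervals of Sox3 (0.583 to 3.12), Gbx2 (0.916 to 1.28), Lhx2 (0.601 to 1.95) and Six3 (0.593 to 5.54) include 1. Those of Irx3 (0.557 to 1.07) and Zic1 (0.503 to 1.25) also include 1, so that these genes were not told apart from control. The part of the feeder cells in these values was not tested. Fabp7, Hesx1 and these 10 genes were chosen after their values were seen.

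Proneural and neuronal genes were spread in both directions. Of 30 genes, 22 passed the minimum, of which 3 were more than 1.5-fold higher and 3 lower in KD-1, and 5 higher and 4 lower in KD-2. Of all genes 8.63% were higher and 5.62% lower in KD-1, and 17.1% and 10.2% in KD-2. The median log2 folds of the 22 genes were 0.01 and -0.03. Stmn2, a microtubule regulator of neurons and the gene of this list with the most reads, had 14594, 15850 and 9936 reads in control, KD-1 and KD-2 and log2 folds of -0.11 and -0.66. Of the 34 genes in the neural lists whose mean reached 50 reads, those whose log2 folds in KD-1 and KD-2 lay nearest to the median pair of the 9 genes (0.33 and 0.17) were Sox21 (0.39 and 0.04, distance 0.14), the Notch ligand gene Dll1 (0.48 and 0.07, distance 0.17) and En1 (0.29 and -0.02, distance 0.20). This likeness rests on 3 libraries.

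Genes of the primed epiblast, the state in which Otx2 and Pou3f1 are used, were compared as 14 genes, all of which passed the minimum. In KD-1 2 were more than 1.5-fold higher and 1 lower, and in KD-2 2 were higher and 4 lower, with medians of 0.07 and -0.09. The shares over all genes were 8.63% higher and 5.62% lower in KD-1, and 17.1% and 10.2% in KD-2. Dnmt3b, a de novo DNA methyltransferase, had 9221, 9389 and 6284 reads, with a log2 fold of -0.66 in KD-2, and Zic2 had 2445, 2610 and 1754 reads, with -0.59. Both were chosen after their values were seen, and Zic2 and Cdh2 are also counted in the list of other neural progenitor genes. Sall2, a zinc finger gene, was at 1.53-fold in both knockdowns. Of 14 naive and core pluripotency genes 1 was more than 1.5-fold higher and 0 lower in KD-1, beside the same shares of all genes. In KD-2 1 was higher and 2 lower, and the medians were 0.28 and -0.09. Nr0b1, an orphan nuclear receptor gene of ES cells, was at 1.59-fold in KD-1 and 1.51-fold in KD-2. The 2 lower genes in KD-2 were Dppa3, with 5419, 4567 and 1912 reads and a fold of 0.328, and Zfp42, with 82732, 99896 and 54998 reads and a fold of 0.617. Both were named after their values were seen. Of the 14 regulators of neural commitment 0 were higher and 1 lower in KD-1, beside 8.63% and 5.62% of all genes. In KD-2 7 were higher and 1 lower, beside 17.1% and 10.2%, and the medians were -0.08 and 0.63. The list holds Id3, a BMP target that opposes proneural factors, with 6262, 6230 and 12679 reads and a log2 fold of 0.91 in KD-2. It also holds Rest, a repressor of neuronal genes, with 6900, 9432 and 5475 reads and log2 folds of 0.22 and -0.44, which was chosen after its values were seen. The median of the feeder markers was -0.59 in KD-1, whereas it was 0.80 in KD-2, and their part in these lists was not tested.

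Genes next to the 9 loci were examined for changes over larger domains. Of 19 counted neighbours or overlapping genes, 9 passed the minimum. In KD-1 1 was more than 1.5-fold higher, Dcdc2c (log2 fold 0.63), which lies 1095.2 kb from Sox11. In KD-2 Tmem260, next to Otx2 at 133.4 kb, was higher (log2 fold 0.72) and Mms22l, 2008.1 kb from Pou3f2, was lower (-0.61). Of all genes that passed the minimum, 8.63% were more than 1.5-fold higher in KD-1, and 17.1% were higher and 10.2% lower in KD-2. Fbxl4, 48.7 kb from Pou3f2, stayed at 0.09 and 0.19, and Papolg, 182.8 kb from Bcl11a, was at -0.01 and -0.54. Elp4, 3.7 kb from Pax6, was at -0.03 and -0.09. The noncoding neighbour of Pou3f3 at 0.9 kb, Pantr1, had 2, 1 and 9 reads.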

How the data were processed

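Total RNA of 3 groups, 1 library each, was sequenced as 50 bp single-end reads. Per the methods and processing notes, the authors trimmed reads with Trim Galore 0.4.1, mapped them with TopHat2 2.1.1 to mm10 (GRCm38), and deposited a table of counts for each library, which hold whole reads on genes and were not normalized. The methods name featureCounts and the processing notes HTSeq; the 5 summary lines, which hold 21.5 to 24.1% of reads as outside of genes and 1.45 to 1.65% as ambiguous, were left out. The strand setting is not given in the sources used here, and the ERCC spike-ins of the methods were not used here.

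Counts were scaled by edgeR's upper quartile, and log2 folds used a pseudocount of 0.5 scaled reads. Intervals are exact Clopper-Pearson intervals (95%) of the ratio of 2 counts without pseudocount and cover counting error only. Past the fold means above 1.5 with a mean of at least 10 reads. This differs from the study's likelihood ratio test, whose dispersion came from spike-ins. The quasi-likelihood test of edgeR 4.0.16 (R 4.3.3) used TMM on 21164 genes with a read and Benjamini-Hochberg adjustment; DESeq2 1.42.0 was an alternative. RPKM used GENCODE M21 exon unions, matched by symbol for 23334 genes, which can differ from the authors' UCSC gene models. Python 3.11.15, scipy 1.17.1, pandas 2.3.3 and matplotlib 3.10.9 were used. Scripts were tested on simulated data.

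Genes and lists were chosen with earlier results of these data known. Named from each other list were up to 3 genes past the fold in the same direction in both knockdowns with a mean of at least 50 reads. Where a list held none, the gene with most reads was named. The 3 genes nearest to the median pair and neighbouring genes were also named. Alternatives were other scalings, a pseudocount of 5 reads, a fold above 2, other minimum means and an interval that leaves out 1.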

Additional observations from a re-analysis of the deposited data

How the results depend on the processing

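With 1 library per group, no replicate check exists, and counting intervals are too narrow as a measure of the difference between conditions. Sox1, Pou3f2 and Bcl11a were past 1.5-fold in KD-1 under every scaling, pseudocount and fold threshold tried, and in KD-2 under every scaling and pseudocount, but Sox1 was lost in KD-2 when the interval had to leave out 1. A minimum mean of 100 reads leaves these 3 genes out by construction, so that 0 genes in KD-1 and 1 in KD-2 (Otx2) were past the fold. With a fold above 2, 3 genes were past it in KD-1, 0 in KD-2 and 0 in KD-2 against KD-1. In KD-2 against KD-1, DESeq2's size factors left 1 gene, total reads 0 and the scaling to pluripotency genes 0, instead of 2; that scaling, added after the data were seen, shifts the median of all genes by 0.36 in this comparison and by -0.28 in KD-1. Total reads shift the median of all genes by 0.16 in KD-2 and by 0.17 in KD-2 against KD-1. Of 135 values of single genes under alternatives, 118 stayed within the counting interval, 17 left it and 0 turned the direction of a gene past the fold. The test of both knockdowns has 1 residual degree of freedom and called 2 genes in all with upper-quartile scaling, 0 with a minimum mean of 10 reads (190 at an unadjusted p under 0.05) and 2 with DESeq2, so that its 0 calls among the 9 genes carry no information on stability. Leaving out a knockdown library leaves no residual degree of freedom, so that no test was run: the log2 fold of Nes is then -0.39 or 0.35 and that of Pax6 -0.34 or 0.33. No paired analysis was possible because each group has 1 library.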

Other observations

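Markers of other germ layers were also measured. Of 12 mesendoderm and extraembryonic genes, 9 passed the minimum, of which 3 were more than 1.5-fold higher and 0 lower in KD-1, and 5 were higher and 0 lower in KD-2, beside 8.63% and 17.1% of all genes higher. The median log2 fold was -0.07 in KD-1, where 5 of 9 were below control, and 0.60 in KD-2. Summed scaled reads of the feeder markers were at 0.724 and 1.68 of control, and their part in these values was not tested. Tfap2c, an AP-2 factor of trophoblast and germ cells, held most reads of the list (2683, 2444 and 2145) and had log2 folds of -0.36 and -0.43. Eomes, a T-box regulator of mesendoderm and trophoblast, had 249 reads in control, beside 463 reads for KD-1 and 406 for KD-2, with folds of 1.59 (interval 1.36 to 1.86) and 1.51 (interval 1.29 to 1.78). Cdx2, a homeobox gene of trophoblast and hindgut, had 6, 25 and 24 reads, with folds of 3.37 (interval 1.42 to 10.6) and 3.52 (interval 1.48 to 11.1). Gata6, a regulator of primitive endoderm, had 46, 63 and 105 reads and was 2.11-fold higher in KD-2 (interval 1.49 to 3.07). Mixl1, with 26, 29 and 20 reads, and Gata4, with 22, 20 and 20 reads, had log2 folds below 0 in both knockdowns, with intervals that include no change. Cdx2, Gata6, Tfap2c, Mixl1, Gata4, Sox17 and T were chosen after their values were seen.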
